A study of Mus musculus with 35 samples.

Results

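The subject is a set of 158 stretches of mouse chromatin that became accessible in both parental lines while embryonic stem cells left the naive state. They were chosen by their measured accessibility out of 1231362 full 2 kb tiles of the autosomes. A tile was selected on the deposited log2 RPKM values (reads per kilobase of tile, scaled to library depth, on a binary log scale) when its mean at D2 was at least 0.5 and exceeded its mean at D0 by at least 1.0, in TET_WT and separately in DNMT_WT. The 158 tiles lie in 152 regions once adjoining tiles are merged. TET_WT passed these thresholds at 1095 tiles and DNMT_WT at 608, so the set is 14.4% of the TET_WT list and 26.0% of the DNMT_WT list. In ATAC-seq, the assay used, a transposase inserts sequencing adapters where chromatin is open. D0 cells were embryonic stem cells (ESC) grown in 2i and Lif, and D1 and D2 cells had been converted for 1 or 2 days towards epiblast-like cells (EpiLC). TET_KO cells lack Tet1, Tet2 and Tet3, and DNMT_KO cells lack Dnmt1, Dnmt3a and Dnmt3b. TET_WT and DNMT_WT are the wild-type lines of these families. The 12 combinations of line and day had 3 libraries apiece, except TET_KO at D2 with 2 (replicates 1 and 3). The labels do not say whether replicates are separate cultures or how many clones a line holds, so p-values here reflect only how these libraries vary, which may be technical.

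Naive embryonic stem cells resemble the epiblast of the blastocyst before implantation, and epiblast-like cells resemble the formative epiblast just after it. During this transition, enhancers of naive genes close and others open, and DNA methylation, low in 2i, is laid down over most of the genome. The Dnmt enzymes add and maintain methyl groups on cytosines of CpG dinucleotides, and the Tet enzymes oxidise them, which leads to their removal. Sites that open in the parental lines can therefore be followed in cells without this oxidation (TET_KO) and in cells that cannot place methylation (DNMT_KO). That is the question the lines pose.

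The libraries held 4172670 to 23686796 reads in tiles, and the median tile of the set held 6 to 46 reads per library. D1 libraries were processed differently from the others: 5.62 to 46.8% of their reads were mitochondrial against none at D0 and D2, and the tile reads summed to about 2.04 times the library total against 1.02 to 1.15 times. Day and processing therefore cannot be told apart in comparisons of D1 with D0 or D2, whereas a knockout and its parental line were processed alike within a day. Values are quantile-normalised log2 RPKM unless called deposited. Tiles around 20 naive pluripotency genes had library medians of 0.38 to 0.63 at D0 and -0.26 to 0.04 at D2, without overlap in these 23 libraries. Tiles around 31 formative genes had medians of -0.06 to 0.24 at D0 and 0.10 to 0.55 at D2, and the days did not overlap within TET_WT, TET_KO or DNMT_KO but did within DNMT_WT. Over the 35 libraries, tiles around primitive endoderm genes (14 of 14 with a tile) had medians of -0.28 to 0.28, trophoblast genes (11 of 12) -0.11 to 0.42 and fibroblast genes (11 of 14) -0.32 to 0.29. From D0 to D2 in DNMT_KO, trophoblast tiles went from 0.14 to 0.23 down to -0.11 to -0.01, and tiles around 13 housekeeping genes from 0.41 to 0.56 up to 0.67 to 0.87, both without overlap. In DNMT_WT, trophoblast tiles went from 0.07 to 0.20 down to -0.09 to 0.06, also without overlap, and housekeeping tiles had 0.14 to 0.47 and 0.41 to 0.62, with overlap. Both lists overlapped between D0 and D2 in TET_KO and TET_WT. Fibroblast tiles in DNMT_WT went from 0.14 to 0.23 down to 0.01 to 0.13, without overlap, and overlapped between these days in the other lines. Primitive endoderm tiles overlapped in every line. The part of these lists in the results was not tested.

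Promoter sequences are shown because both enzyme families act on CpG and because a pair of these promoters share sequence. Of the 158 tiles, 17 held a listed start of a protein-coding gene. RefSeq lists 300 bases around each start (250 before to 50 after, GRCm38.p6), and 19 such coding promoters fall to these tiles. Epcam, an epithelial adhesion molecule, starts in the tile chr17:87634001-87636000. Rps23rg1, a retroposed gene derived from a ribosomal protein gene, starts in the tile chr8:3566001-3568000. In the first pair below, each 5′ to 3′ on the plus strand, the capitals mark runs of at least 16 bases that the 2 promoters have in common.
Epcam, chr17:87635729-87636028: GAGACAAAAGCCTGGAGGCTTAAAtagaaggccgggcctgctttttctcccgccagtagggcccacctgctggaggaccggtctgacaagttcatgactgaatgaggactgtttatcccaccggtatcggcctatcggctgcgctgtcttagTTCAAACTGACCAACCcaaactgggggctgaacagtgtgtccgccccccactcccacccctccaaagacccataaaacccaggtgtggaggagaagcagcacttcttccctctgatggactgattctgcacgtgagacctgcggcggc
Rps23rg1, chr8:3567748-3568047: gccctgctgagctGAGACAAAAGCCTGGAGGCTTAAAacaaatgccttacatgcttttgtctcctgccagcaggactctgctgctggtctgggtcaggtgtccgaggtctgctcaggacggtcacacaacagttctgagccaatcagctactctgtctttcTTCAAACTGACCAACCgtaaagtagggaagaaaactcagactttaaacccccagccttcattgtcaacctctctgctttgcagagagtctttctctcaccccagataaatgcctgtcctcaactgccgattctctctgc
The longer run, gagacaaaagcctggaggcttaaa, has 24 bases, and the shorter, ttcaaactgaccaacc, has 16. Of 32851 listed promoters, each run occurred on either strand in 2, those of Epcam and Rps23rg1. No other pair of different genes among these promoters had a run of 16 bases in common. This comparison was made after the sequences had been seen.

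The next pair shows a promoter of median and one of high CpG content, with each CpG in capitals. Bmf encodes a BH3-only protein that promotes apoptosis, and its promoter, on the minus strand, had 8 CpG, the median of the 19 promoters. Rspo1 encodes an R-spondin, a secreted amplifier of Wnt signalling, and its promoter, on the plus strand, had 29.
Bmf, chr2:118544538-118544837: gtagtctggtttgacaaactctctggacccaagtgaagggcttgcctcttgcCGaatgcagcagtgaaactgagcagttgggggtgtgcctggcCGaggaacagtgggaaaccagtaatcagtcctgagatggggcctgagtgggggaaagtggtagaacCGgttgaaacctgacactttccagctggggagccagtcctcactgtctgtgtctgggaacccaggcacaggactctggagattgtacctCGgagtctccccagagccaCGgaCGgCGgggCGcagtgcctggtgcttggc
Rspo1, chr4:124986180-124986479: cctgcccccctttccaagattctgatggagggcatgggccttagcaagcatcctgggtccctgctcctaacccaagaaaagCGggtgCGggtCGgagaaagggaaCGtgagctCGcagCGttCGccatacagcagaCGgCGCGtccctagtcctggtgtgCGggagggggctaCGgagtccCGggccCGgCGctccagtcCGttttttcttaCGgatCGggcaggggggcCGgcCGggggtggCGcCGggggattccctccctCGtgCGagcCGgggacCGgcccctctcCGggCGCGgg
The 19 promoters had 3 to 31 CpG against a median of 13 in the 21230 listed coding promoters, with quartiles of 4 and 24. Bmf held AACCGGTT, the palindrome bound by Grainyhead-like (GRHL) factors, which was in 1 of the 19 and in 0.179% of all coding promoters. CAGCAG, a sequence like that bound by ZIC factors, was in 8 of the 19 against 31.3% of all. TAATCC (OTX2), CCGGAA (ETS) and GGAATG (TEAD) were in 2 of 19 each, against 6.42%, 18.7% and 13.6%. TGANTCA (AP-1), ATGCAAAT (octamer) and CACGTG (E-box) were in 1 of 19 each, against 6.99%, 1.66% and 7.83%. Both strands were searched in the same 300 bases, and the 2 starts of Oprm1 and the 2 of Magi1 were each counted. A match is a match of letters in this window and was not tested as a binding site.

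In the parental lines the tiles stood low at D0 and high at D2, which is how they were chosen. The median of the 158 tiles was -0.53 to -0.11 in the 3 TET_WT libraries at D0 and 0.81 to 1.42 at D2. In DNMT_WT it was -0.41 to -0.14 at D0 and 1.21 to 1.38 at D2. Between the days the median tile differed by 1.55 in TET_WT and 1.59 in DNMT_WT. The threshold cut through a continuous range of deposited differences. Just inside it, the Bmf tile (chr2:118544001-118546000) had 1.01 in TET_WT and 1.16 in DNMT_WT, the Rps23rg1 tile 1.01 and 1.16, and chr8:111786001-111788000 had 1.10 and 1.01. Just outside, chr17:35698001-35700000 had 1.03 and 0.997, chr8:8656001-8658000 had 1.12 and 0.996, and chr8:3568001-3570000, next to the Rps23rg1 tile, had 0.992 and 1.19.

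**Figure D1:**
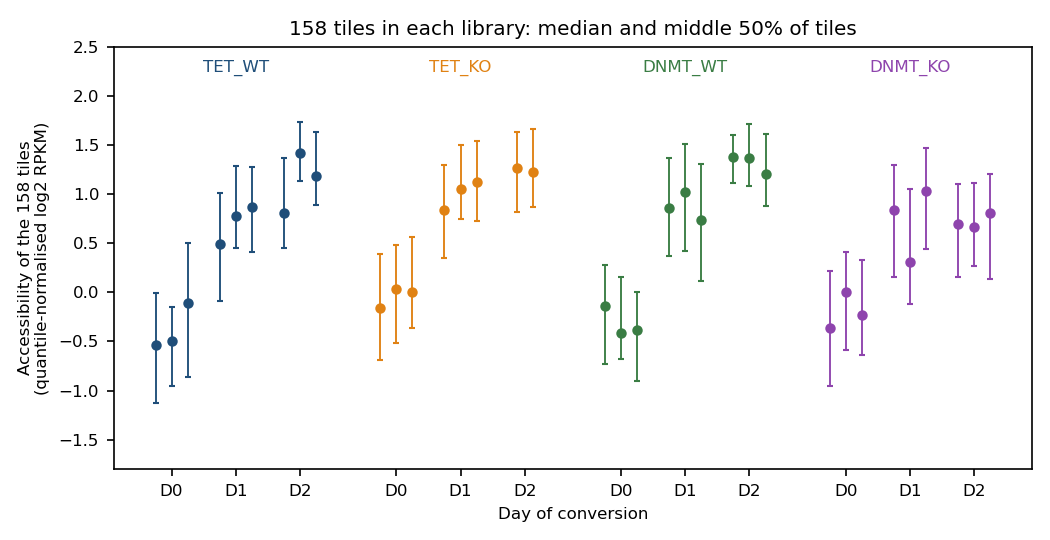
Accessibility of the 158 tiles in each of the 35 libraries, with day on the x axis and quantile-normalised log2 RPKM on the y axis. Points are medians over tiles and bars span the middle 50% of tiles. TET_KO at D2 lies at 1.23 to 1.27 and DNMT_KO at D2 at 0.67 to 0.81. The parental D0 and D2 libraries chose the tiles.

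Most of the tiles were already more accessible at D1 than at D0, with the limit that D1 was processed differently. The mean at D1 was above that at D0 in 157 of 158 tiles in TET_WT, 153 in DNMT_WT, 156 in TET_KO and 142 in DNMT_KO. The median D1 minus D0 difference was 1.13 in TET_WT, 1.20 in DNMT_WT, 1.06 in TET_KO and 0.91 in DNMT_KO. The median of all tested tiles moved by 0.00 to 0.02, which quantile normalisation of these tiles largely fixes near 0. At D1 the mean was past the midpoint between D0 and D2 in 131 tiles in TET_WT, 118 in DNMT_WT, 128 in TET_KO and 119 in DNMT_KO. It was above the D2 mean in 22, 30, 49 and 76 tiles in the same order of lines. The choice required parental D2 values to be high and parental D0 values to be at least 1.0 lower. No knockout values were used in it. Parental D1 values above D0 are thus partly built in, and these counts are descriptions. The matching counts over all tested tiles are not given. Library medians of DNMT_KO at D1 (0.31 to 1.03) and at D2 overlapped, whereas TET_KO went from 0.84 to 1.12 at D1 to 1.23 to 1.27 at D2 without overlap. No test was made of any of these comparisons with D1.

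The libraries of TET_KO took no part in the choice. In TET_KO, 52 of the 158 tiles rose from D0 to D2 and none fell (limma, adjusted p under 0.05). Of all 115571 tested tiles, 294 (0.254%) were called higher and 1389 were called lower. The median tile differed by 1.29 (quartiles 0.86 and 1.67), and 156 of 158 differences were above 0. The median over tiles was -0.16 to 0.03 in the 3 D0 libraries and 1.23 to 1.27 in the 2 D2 libraries. In 141 tiles both D2 libraries lay above the 3 D0 libraries, against 15% of tested tiles. By the thresholds of the choice itself, on deposited values, 88 tiles (55.7%) passed in TET_KO, against 1.16% of tested tiles. The count of calls was 26 without D0 replicate 1, 11 without D2 replicate 1 and 17 without D2 replicate 3, and 7 tiles were called whichever library was left out. It was 16 on reads thinned to equal depth, 30 on deposited values and 84 when only these groups were fitted. Tested tiles called higher numbered 192, 34 and 53 in the named leave-out runs and 59, 106 and 688 in these alternatives, in the same order. The number of tested tiles to set beside the 7 is not given.

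Of the 4 largest called rises in TET_KO without overlap of libraries, 3 are given here, each tile named by the gene it lies in or nearest to. The tile chr1:25310001-25312000 lies inside Adgrb3, an adhesion G protein-coupled receptor of neurons. Its values were -1.30, -0.90 and -0.36 at D0 (7, 6 and 7 reads) and 2.05 and 1.86 at D2 (47 and 67 reads). The groups did not overlap, and the difference was 2.81 (SE 0.54, adjusted p = 0.000791).
The tile chr8:6606001-6608000 lies far from genes, 1502 kb from Slc10a2, which encodes a bile acid transporter. It had -1.10, -1.17 and -1.12 at D0 and 1.97 and 1.26 at D2, a difference of 2.74 (SE 0.48, adjusted p = 0.000212). The groups did not overlap.
The tile chr1:57890001-57892000 lies inside Spats2l, which encodes a stress granule and nucleolar protein. It had -0.88, -2.28 and -0.17 at D0 and 1.37 and 1.66 at D2, a difference of 2.63 (SE 0.47, adjusted p = 0.000255). The Adgrb3, Slc10a2 and Spats2l tiles kept their calls without each of the 5 libraries in turn, but on thinned reads the Adgrb3 tile lost its call (adjusted p = 0.079). In DNMT_KO the Adgrb3 tile differed by 1.28 (SE 0.48, adjusted p = 0.146). There the Slc10a2 tile rose by 1.46 (SE 0.43, adjusted p = 0.0391), a call lost without 5 of 6 libraries. The Spats2l tile rose there by 2.17 (SE 0.42, adjusted p = 0.000396), and this call held in each alternative run.

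In DNMT_KO, 50 of the 158 tiles rose from D0 to D2 and none fell. Of the tested tiles, 835 (0.722%) were called higher and 3008 were called lower. The median tile differed by 0.91 (quartiles 0.51 and 1.33), and 144 of 158 differences were above 0. Over the tiles the median was -0.36 to 0.00 in the 3 D0 libraries and 0.67 to 0.81 in the 3 D2 libraries. In 77 tiles the 3 D2 libraries lay above the 3 D0 libraries, against 8.68% of tested tiles. The thresholds of the choice were passed at 29 tiles (18.4%), against 0.234% of tested tiles. The count of calls was 33 to 41 when 1 library was left out, with 33 without D2 replicate 1, and 20 tiles were called whichever library was left out. It was 13 on thinned reads, 24 on deposited values and 26 with no filter on low tiles. Tested tiles called higher numbered 149, 180 and 207 in these alternatives, the last of 1155684 tiles, and 445 without D2 replicate 1. Over all leave-out runs they numbered 397 to 812. The number of tested tiles to set beside the 20 is not given.

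The largest rise in DNMT_KO was at chr11:84944001-84946000, 12.8 kb from Car4, a membrane-bound carbonic anhydrase on the formative list. Its values were -0.73, -0.36 and -2.11 at D0 (6, 7 and 2 reads) and 2.42, 1.77 and 2.48 at D2 (53, 26 and 43 reads). The difference was 3.29 (SE 0.32, adjusted p = 1.56e-11), and the call held in each alternative run. In TET_KO the same tile had 0.14, -0.36 and 0.00 at D0 and 1.59 and 2.01 at D2, a difference of 1.87 (SE 0.35, adjusted p = 0.000607). That call was lost without D2 replicate 3 (adjusted p = 0.061), with an adjusted p of at most 0.272 over the alternatives.
The tile chr4:124442001-124444000 lies 215 kb from Pou3f1, a POU-domain transcription factor of the early epiblast. In DNMT_KO it had -1.25, -3.17 and -0.23 at D0 (4, 0 and 8 reads) and 1.03, 0.41 and 1.29 at D2, a difference of 2.46 (SE 0.47, adjusted p = 0.000373). The size of this difference depends on the value given to an empty tile.
The tile chr18:55816001-55818000, 570.5 kb from Gramd3, had -2.04, -2.68 and -2.74 at D0 (2, 1 and 1 reads) and -0.24, -0.23 and -0.01 at D2 (10, 8 and 9 reads), a difference of 2.33 (SE 0.50, adjusted p = 0.00173). These calls of the Pou3f1 and Gramd3 tiles in DNMT_KO held without each library in turn. The Gramd3 call was lost on thinned reads and when only these groups were fitted (adjusted p up to 0.101). In TET_KO the Gramd3 tile rose by 2.58 (SE 0.56, adjusted p = 0.0038), a call lost without 2 of 5 libraries.

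**Figure D2:**
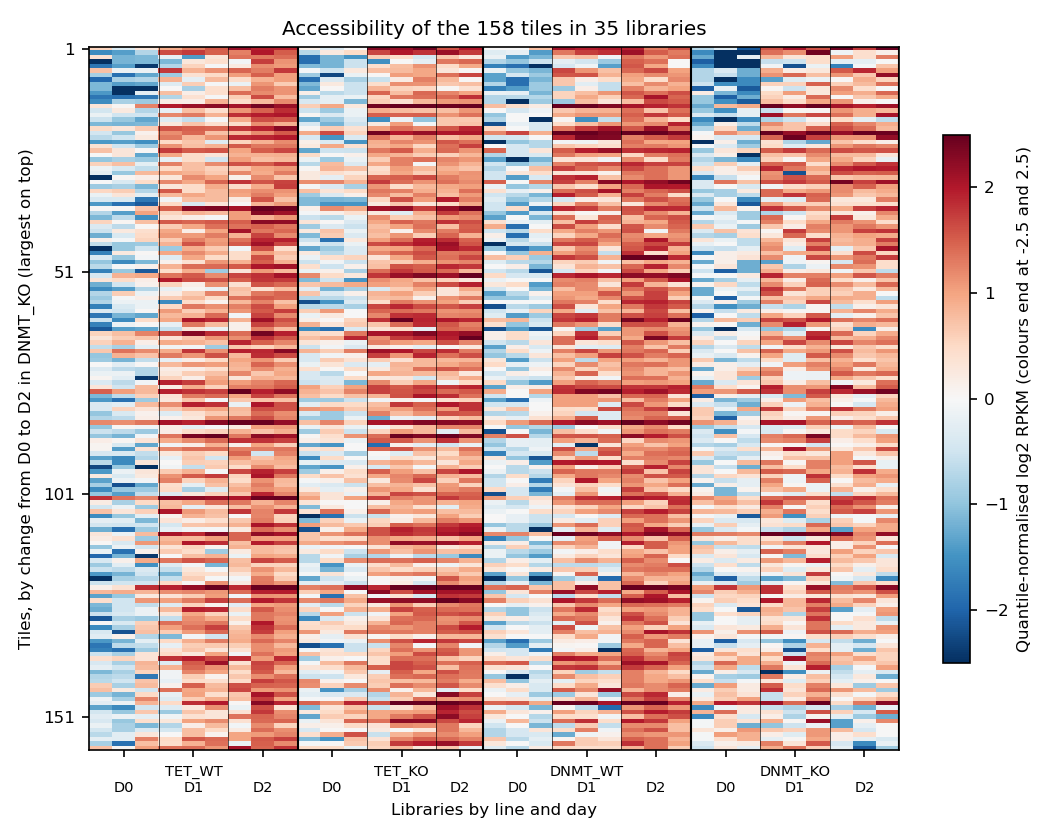
Quantile-normalised log2 RPKM of the 158 tiles (rows, sorted by the D2 minus D0 difference in DNMT_KO) in 35 libraries (columns, by line and day). Red is high and blue is low. From top to bottom the DNMT_KO difference goes from 3.29 (Car4 tile) to -0.93 (Rpap3 tile).

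The knockouts had 25 called tiles in common, and no tile was called in the test of the difference between them. Of the 158 tiles, 25 were called in both knockouts, 27 in TET_KO alone, 25 in DNMT_KO alone and 81 in neither. Of all tested tiles, 0.0433% were called higher in both, 50 tiles that include these 25. The change from D0 to D2 was larger in TET_KO at 105 tiles, with a median difference of 0.33 (quartiles -0.17 and 0.83) and a median SE of 0.60. None was called (limma, 0 of 158 at an adjusted p under 0.05, smallest adjusted p = 0.244, 28 at an unadjusted p under 0.05), where 0.0026% of tested tiles were called higher and 0% lower. The counts were 0 in the voom fit of recovered reads and 1 without TET_KO D0 replicate 3, where 1 and 10 tested tiles were called higher. The share of tested tiles under an unadjusted p of 0.05 is not given, so the count of 28 is a description. The interval of a single tile's difference is wide at this depth, and the count of 0 does not show that the knockouts act alike. TET_KO and DNMT_KO also come from different families. At D0 and D2, tile reads summed to 1.15 times the library total in TET_KO and 1.02 times in DNMT_KO. The median tile held 26 and 44 reads in the TET_KO D2 libraries and 14 to 18 in those of DNMT_KO. Family, processing and depth therefore cannot be told apart from the knockout in this comparison.

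**Figure D3:**
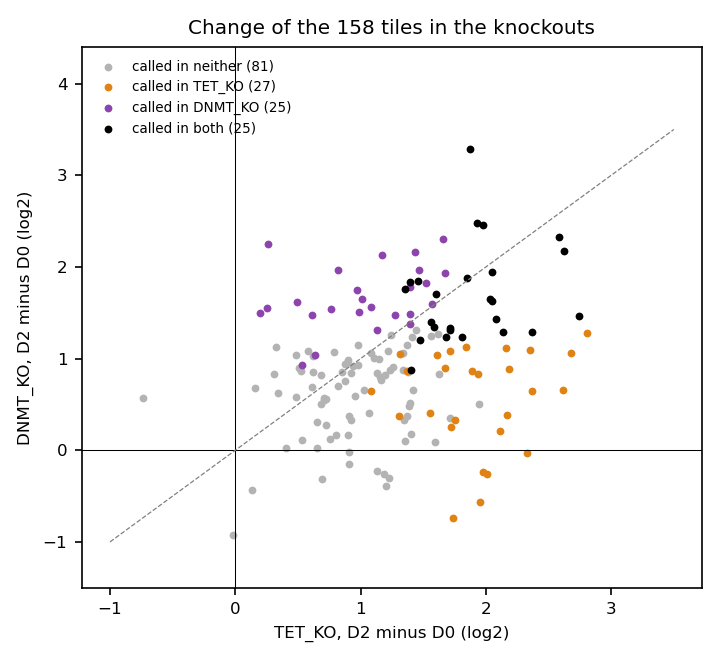
Change from D0 to D2 of each of the 158 tiles in TET_KO (x axis) and DNMT_KO (y axis), on the log2 scale of quantile-normalised RPKM. Colours show the calls: 25 in both, 27 in TET_KO, 25 in DNMT_KO and 81 in neither. The dashed line marks equal change.

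The 3 lowest changes of each knockout are described next. The tile chr1:46858001-46860000 lies inside Slc39a10, which encodes a zinc transporter. In TET_KO it had -0.69, -0.09 and -0.80 at D0 and -0.92 and -1.60 at D2, a difference of -0.73 (SE 0.51, adjusted p = 0.699). Its DNMT_KO difference was 0.57 (SE 0.46, adjusted p = 0.613). In TET_WT it had -1.97, -1.17 and -2.42 at D0 and -0.17, 0.99 and 0.92 at D2.
The tile chr19:50440001-50442000 lies inside Sorcs1, a sorting receptor of neurons. In DNMT_KO it had -0.36, 0.14 and 0.23 at D0, 1.26, 0.31 and 1.54 at D1 and -0.41, -1.59 and -0.19 at D2. Its D2 minus D0 difference was -0.73 in DNMT_KO (SE 0.43, adjusted p = 0.427) and 1.74 in TET_KO (SE 0.48, adjusted p = 0.0379). The difference between the knockouts was 2.47 (SE 0.64, adjusted p = 0.305).
The tile chr1:84176001-84178000 lies inside Pid1, which encodes a phosphotyrosine-interaction domain protein. It had -0.06, 0.41 and 0.88 at D0 and 0.16, -0.23 and -0.39 at D2 in DNMT_KO, against -1.10, -1.48 and 0.74 and then 1.42 and 1.26 in TET_KO. The knockouts differed by 2.52 (SE 0.62, adjusted p = 0.244), the largest such difference of the 158 tiles. The TET_KO calls of the Sorcs1 and Pid1 tiles were lost without 4 of the 5 libraries in turn, with adjusted p-values of up to 0.446 and 0.176 over the alternatives.
The tile chr15:97594001-97596000, 80.1 kb from Rpap3, an RNA polymerase assembly factor, was among the lowest in both knockouts. Its difference was -0.02 in TET_KO (SE 0.42, adjusted p = 0.996) and -0.93 in DNMT_KO (SE 0.38, adjusted p = 0.187). The tile chr18:47492001-47494000, 122 kb from Sema6a, a semaphorin, differed by 0.13 in TET_KO (SE 0.44, adjusted p = 0.970).

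**Figure D4:**
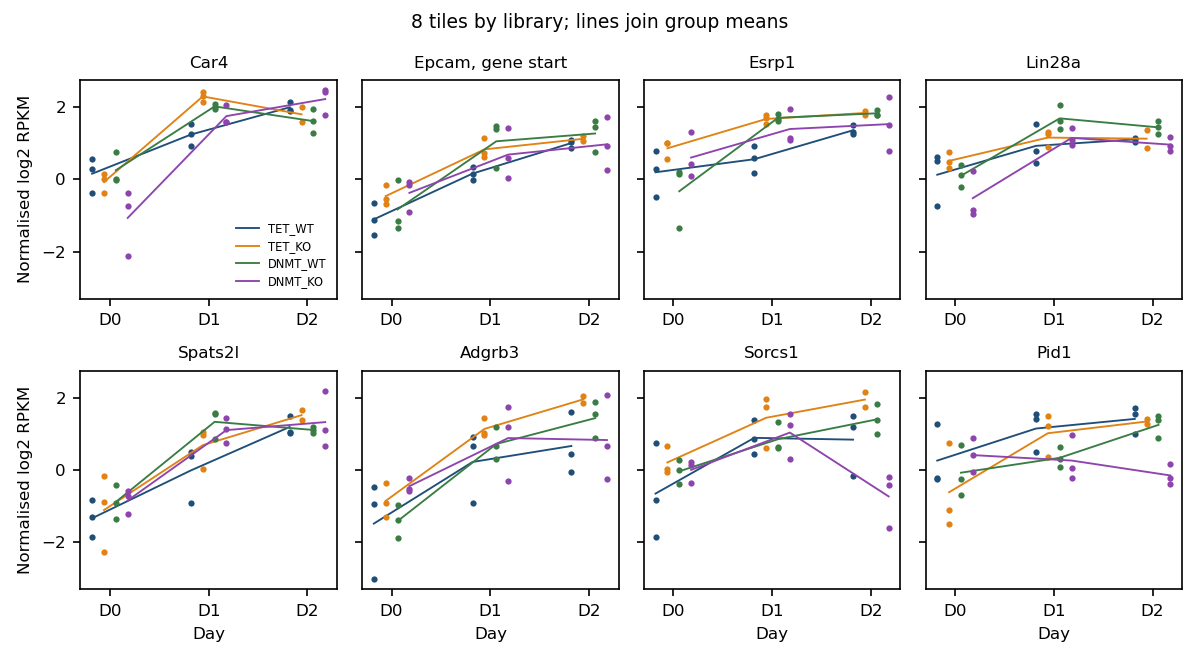
Quantile-normalised log2 RPKM (y axis) of 8 tiles by day (x axis), named by the nearest gene. Points are libraries and lines join group means of TET_WT, TET_KO, DNMT_WT and DNMT_KO. In DNMT_KO at D2 the Sorcs1 tile lies at -1.59 to -0.19 and the Pid1 tile at -0.39 to 0.16, while the Car4 tile lies at 1.77 to 2.48.

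Knockout and parental line were compared at D1, whose libraries did not choose the tiles. In TET_KO no tile was called against TET_WT (limma, 0 of 158, 33 at an unadjusted p under 0.05, smallest adjusted p = 0.098), where 0.0536% of tested tiles were called higher and 0.0658% lower. The median tile was 0.25 higher in TET_KO, and 111 of 158 differences were above 0. As deposited, that median was 0.05, with 92 above 0, and the median of all tested tiles was -0.27. The voom fit called 4 tiles higher and the fit of these groups alone 3, where 130 and 93 tested tiles were called higher. In DNMT_KO no tile was called against DNMT_WT (limma, 0 of 158, 14 at an unadjusted p under 0.05, smallest adjusted p = 0.281), and 0.0026% of tested tiles were called in each direction, with 0 calls in the voom fit. The median was -0.15, with 55 differences above 0, and it turned to 0.03 when libraries were centred on their medians and to 0.04 without DNMT_KO D1 replicate 2. The shares of tested tiles under an unadjusted p of 0.05 are not given, so the counts of 33 and 14 are descriptions.
At D0 and D2 the parental values chose the tiles, and the differences from them are descriptions. TET_KO minus TET_WT had a median of 0.46 at D0 (120 of 158 above 0) and 0.07 at D2 (83 above 0). DNMT_KO minus DNMT_WT had a median of 0.11 at D0 (94 above 0) and -0.62 at D2 (14 above 0).

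A line was also compared with its knockout on tiles chosen in the other family's parental line, lists that include the 158 tiles. Those 158 were chosen by the D0 and D2 values of the measured parental line as well. The parental changes and their differences from the knockouts are therefore partly built in, and these values are descriptions. On the 1040 tested tiles past the thresholds in TET_WT, the median change from D0 to D2 was 0.77 in DNMT_WT (88.8% above 0) and 0.48 in DNMT_KO (75.9% above 0). Library medians on them were -0.24 to -0.01 in DNMT_WT and -0.23 to 0.00 in DNMT_KO at D0, and 0.48 to 0.75 and 0.13 to 0.30 at D2. The lines thus overlapped at D0 and did not overlap at D2. On the 602 tested tiles past the thresholds in DNMT_WT, the median change was 0.71 in TET_WT (89.7% above 0) and 0.66 in TET_KO (87.7% above 0). Library medians there were -0.06 to 0.16 and 0.14 to 0.26 at D0, and 0.61 to 0.88 and 0.82 to 0.84 at D2, in TET_WT and TET_KO, with overlap on both days.
Tiles past the thresholds in a single parent were counted in the knockouts by the same thresholds. Of the 937 tiles of TET_WT alone, 25.7% passed in TET_KO and 1.92% in DNMT_KO, and of the 450 of DNMT_WT alone, 11.1% and 3.11%. TET_WT and TET_KO share a family, as do DNMT_WT and DNMT_KO, and no test was made of these shares.

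By the position of their centre, more tiles of the set lay outside protein-coding genes than inside them. A tile counted as outside can still overlap an end of such a gene, as those of Esrp1 and Egr1 do. Noncoding genes were not counted. Of the 158, 86 (54.4%) lay outside, against 38.4% of tested tiles. Inside genes away from a listed coding start lay 55 (34.8%), against 51.3%, and 17 (10.8%) held such a start, against 10.3%. Of the tiles of TET_WT alone, 52.2% lay outside and 39.8% inside. Of those of DNMT_WT alone, 44.4% lay outside and 38.7% inside. In all, 35 of the 158 tiles (22.1%) were more than 100 kb from any protein-coding gene, against 4.79% of tested tiles, 17.0% of the tiles of TET_WT alone and 8.44% of those of DNMT_WT alone. In TET_KO the median change was 0.90 at the 17 gene-start tiles (3 called), 1.34 at the 55 inside genes (20 called) and 1.35 at the 86 outside (29 called). In DNMT_KO the medians were 0.70 (4 called), 1.00 (19 called) and 0.91 (27 called). The parental medians, which the choice used, were likewise lowest at gene starts, 1.22 in TET_WT and 1.33 in DNMT_WT. The called share of all tested tiles is not given by place, so the calls by place are descriptions. Chromosome 1 held 25 tiles (15.8%, against 9.34% of tested tiles and 7.94% of all full autosomal tiles). Chromosome 8 held 18 (11.4%, against 12% and 5.25%), while chromosome 14 held 1 (0.633%, against 3.66% and 5.07%). With each chromosome centred in each library, 54 tiles were called in TET_KO and 51 in DNMT_KO. Of the 115571 tested tiles, 315 and 888 were then called higher.

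**Figure D5:**
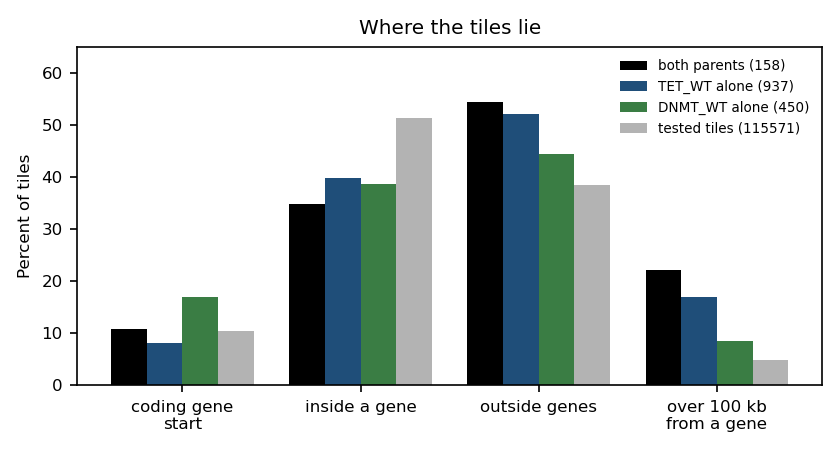
Share of tiles (y axis, percent) on a listed start of a protein-coding gene, inside a gene, outside genes, and over 100 kb from a gene. Tiles off a start were placed by their centre, and only protein-coding genes were counted. Bars stand for the 158 tiles past the thresholds in both parents, those in 1 parent alone and all tested tiles. The share outside genes is 54.4% for the 158 tiles, 52.2% for TET_WT alone, 44.4% for DNMT_WT alone and 38.4% for tested tiles.

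Of 16 gene lists, 6 had a member within 50 kb of a tile of the set. Over all 20665 protein-coding genes, 240 (1.16%) did. The formative epiblast list had 4 of 31 (Pou3f1, Lef1, Car4 and Epcam), and the epithelial junction list 3 of 22 (Epcam, Esrp1 and Prss8). The Nodal and TGF-beta list had 2 of 17 (Lefty1 and Lefty2, beside the same tile), the FGF-ERK response list 2 of 18 (Spry4 and Egr1), the Wnt response list 1 of 14 (Lef1) and the core pluripotency list 1 of 10 (Lin28a). None of the 20 naive pluripotency genes, 24 haematopoietic, 14 primitive endoderm, 11 trophoblast, 14 fibroblast, 14 neuroectoderm, 15 primitive streak and mesoderm, 19 methylation-dependent germline, 13 methylation machinery or 13 housekeeping genes had one. The lists overlap and were made with earlier results known, and nearness does not tie a tile to a gene.

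Among secreted signals, Lefty1 and Lefty2 encode inhibitors of Nodal. Their tile, chr1:180940001-180942000, lies 2.60 kb from Lefty1, 41.9 kb from Lefty2 and 1.29 kb from Tmem63a. It was called in neither knockout, with a change of 0.48 in TET_KO (SE 0.45, adjusted p = 0.812) and 1.04 in DNMT_KO (SE 0.40, adjusted p = 0.153). In DNMT_KO it went from -0.73, -0.36 and -0.63 at D0 to 0.28, 0.67 and 0.44 at D2, without overlap.
Of the epithelial genes, Epcam had 2 adjoining tiles. The tile with its start had -0.06, -0.17 and -0.89 at D0 and 1.72, 0.27 and 0.92 at D2 in DNMT_KO, a rise of 1.34 (SE 0.40, adjusted p = 0.0381). In TET_KO it had -0.54, -0.68 and -0.17 at D0 and 1.06 and 1.19 at D2, a rise of 1.59 (SE 0.44, adjusted p = 0.0441). The groups did not overlap in either line. The TET_KO call was lost without each of the 5 libraries in turn (adjusted p up to 0.333), and the DNMT_KO call without 4 of 6 (adjusted p up to 0.294).
The next tile, inside Epcam, changed by 1.31 in DNMT_KO (SE 0.38, adjusted p = 0.0361, lost without 4 of 6 libraries) and had a difference of 1.13 in TET_KO (adjusted p = 0.231). Esrp1 encodes an epithelial splicing regulator, and an end of the gene (position 11386783) lies in the tile chr4:11386001-11388000. It had 1.00, 0.57 and 1.01 at D0 and 1.77 and 1.90 at D2 in TET_KO, a difference of 0.98 (SE 0.38, adjusted p = 0.261), and 0.93 in DNMT_KO (SE 0.34, adjusted p = 0.130). Prss8, an epithelial serine protease, lies 2.85 kb from chr7:127932001-127934000, which is inside Prss36. This tile rose by 1.32 in TET_KO (SE 0.37, adjusted p = 0.0430), a call lost without each of the 5 libraries, and differed by 1.05 in DNMT_KO (SE 0.33, adjusted p = 0.0561).

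Among transcription factors, a second tile near Pou3f1, chr4:124646001-124648000 at 10.65 kb, was called in neither knockout. Its difference was 1.37 in TET_KO (SE 0.44, adjusted p = 0.114) and 1.14 in DNMT_KO (SE 0.40, adjusted p = 0.0987). The distal Pou3f1 tile described above was called in TET_KO as well, with a rise of 1.98 (SE 0.53, adjusted p = 0.0308), but not without 4 of the 5 libraries in turn (adjusted p up to 0.382).
Lef1 is a transcription factor of the Wnt pathway, and its tile, chr3:131102001-131104000, lies 7.30 kb away. It had -0.36, 0.00 and 0.73 at D0 and 1.58, 0.79 and 1.11 at D2 in DNMT_KO, a rise of 1.04 (SE 0.32, adjusted p = 0.0494), lost without 4 of 6 libraries (adjusted p up to 0.355 over the alternatives). In TET_KO it already stood at 0.88, 0.64 and 1.28 at D0 and at 1.84 and 1.29 at D2, a difference of 0.64 (SE 0.36, adjusted p = 0.566).
Egr1, an immediate early factor induced by ERK signalling, ends inside the tile chr18:34864001-34866000, where the differences were 1.38 in TET_KO (SE 0.49, adjusted p = 0.182) and 0.85 in DNMT_KO (SE 0.44, adjusted p = 0.343). Spry4, a feedback inhibitor of that pathway, lies 13.25 kb from chr18:38572001-38574000, with differences of 0.87 (SE 0.44, adjusted p = 0.484) and 0.94 (SE 0.39, adjusted p = 0.207).
Lin28a, an RNA-binding protein that blocks let-7 maturation, held 2 adjoining tiles. The tile chr4:134010001-134012000 had -0.95, -0.84 and 0.23 at D0 and 1.18, 0.79 and 0.92 at D2 in DNMT_KO, a rise of 1.48 (SE 0.34, adjusted p = 0.00368). This call held without each library in turn but was lost on deposited values (adjusted p = 0.0516) and on thinned reads (adjusted p = 0.0712). In TET_KO it had 0.75, 0.31 and 0.47 at D0 and 0.88 and 1.38 at D2, a difference of 0.61 (SE 0.38, adjusted p = 0.632). The adjoining tile, chr4:134012001-134014000, rose by 1.61 in DNMT_KO (SE 0.41, adjusted p = 0.0116) but not without 3 of 6 libraries, D0 replicate 3 (adjusted p = 0.419) among them, and differed by 0.50 in TET_KO (SE 0.46, adjusted p = 0.812). At the first Lin28a tile the difference between the knockouts' changes was not called (TET_KO minus DNMT_KO -0.87, SE 0.51, adjusted p = 0.783).

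Tiles among the 10 with the largest gains in the parents, gains that the choice used, were followed in the knockouts. Ranked by the smaller of the 2 parental deposited differences, 9 of them lay in or nearest to Shisa6, Lypd6, Ccdc85a, Alg10b, Nrcam, Car10, Atad1, Kcna4 and Clec12a. The Shisa6 tile, chr11:66568001-66570000, is 41.02 kb from this gene of an AMPA receptor-associated protein, with deposited parental differences of 2.43 and 2.91. In TET_KO it had -0.16, -0.51 and -0.17 at D0 and 2.13 and 1.58 at D2, a rise of 2.13 (SE 0.42, adjusted p = 0.000942). In DNMT_KO it had -0.18, 0.00 and -0.63 at D0 and 0.87, 0.90 and 1.29 at D2, a rise of 1.29 (SE 0.37, adjusted p = 0.0320). The DNMT_KO call was lost without 5 of 6 libraries (adjusted p up to 0.214), and the TET_KO call without D2 replicate 1 (adjusted p = 0.095).
The tile chr11:27498001-27500000, 887 kb from Ccdc85a, rose by 2.05 in TET_KO (SE 0.44, adjusted p = 0.00356, lost without D2 replicate 3 at adjusted p = 0.142) and by 1.94 in DNMT_KO (SE 0.40, adjusted p = 0.000843). On thinned reads neither Ccdc85a call was kept (adjusted p = 0.0713 in TET_KO and 0.157 in DNMT_KO). The tile chr19:32726001-32728000 inside Atad1, a mitochondrial membrane ATPase, rose by 1.56 (SE 0.38, adjusted p = 0.0131) and 1.40 (SE 0.34, adjusted p = 0.00707), and lost the calls without 3 of 5 and 2 of 6 libraries.
Of these 9 tiles, 3 were called in both knockouts, those of Shisa6, Ccdc85a and Atad1. The Kcna4 tile was called in TET_KO (2.37, SE 0.57, adjusted p = 0.0129, lost without 3 of 5 libraries). The tiles of Lypd6 (1.97, SE 0.47, adjusted p = 0.00671, lost without 3 of 6), Alg10b (2.31, SE 0.55, adjusted p = 0.00603, lost without 3 of 6) and Clec12a (1.37, SE 0.42, adjusted p = 0.0491, lost without 5 of 6) were called in DNMT_KO. The Nrcam and Car10 tiles, near genes of a neuronal adhesion molecule and a carbonic anhydrase-related protein, were called in neither, with differences of 1.16 and 1.22 in TET_KO and 0.77 and 1.08 in DNMT_KO.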

How the data were processed

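Trimming used Trim Galore 0.6.5 and cutadapt 2.3, and alignment used Bowtie2 2.4.1 with GRCm38 (submitters' processing notes). For read ends and duplicates, the handling was not given in the sources used here. Per the file headers and values, the authors deposited log2 RPKM for 2 kb tiles. The values are whole multiples of 1 read (tolerance 0.01 read) with an empty tile at 0.9 read, so the reads were recovered. The members and lists were chosen with earlier results of these data known.

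Tested tiles were full autosomal tiles with a read in at least 1 D0 or D2 library in the highest 10% by mean, plus the 158 tiles (156 pass by themselves): 115571 in all. After quantile normalisation, limma 3.58.1 in R 4.3.3 was run with its trend option and a mean for every group (23 residual degrees of freedom). The 2-sided p-values were adjusted by Benjamini and Hochberg's method across the tested tiles, and tiles under an adjusted p of 0.05 were called. As deposited, the median of tested tiles differed by -0.09 between D2 and D0 in DNMT_KO and by -0.27 between TET_KO and TET_WT at D1, and changes are relative to these shifts. In simulated reads for TET_KO at D2 against D0, 0 of 100 tiles changed 2-fold and 27 of 100 changed 4-fold were called, with 4 false calls of 115571 tiles. Genes are those of GRCm38.p6 in RefSeq, and 16457 of 20665 autosomal coding genes had a listed start. Tiles were named from these rules: the 10 largest parental gains, those within 50 kb of a list gene, the largest called changes without overlap, the lowest changes in each knockout, and those at the threshold. Results of 2 tiles that these rules name are not reported here. Figures were drawn with matplotlib.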

Additional observations from a re-analysis of the deposited data

How the results depend on the processing

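The number of tiles depended on the thresholds and the scale of the choice: 46 with a D2 level of at least 1.0, 4011 with no level, 56 and 350 with differences of at least 1.5 and 0.75, 268 with libraries centred on medians, 278 after quantile normalisation and 276 with chromosomes centred (an alternative chosen after seeing the data). It was 114 to 225 when 1 parental library was left out, and 227 on thinned reads, of which 114 were among the 158. Calls in TET_KO from D0 to D2 numbered 30 on deposited values, 16 on thinned reads, 34 with no filter and 84 with only its own groups, and 11 to 42 when 1 library was left out. Calls in DNMT_KO numbered 24 on deposited values, 32 with libraries centred on medians, 13 on thinned reads, 26 with no filter and 32 with only its own groups, and 33 to 41 when 1 library was left out. At D1, TET_KO against TET_WT gave 4 calls with voom and 3 with only its own groups, and the difference between the knockouts gave 0 to 1 when 1 library was left out. Over all tested tiles the number called higher in TET_KO was 294, against 59 on thinned reads and 688 with only its own groups. In DNMT_KO it was 835, against 149 and 381, and 372 with libraries centred on medians. With no filter it was 161 in TET_KO and 207 in DNMT_KO, of 1155684 tiles. When 1 library was left out it was 34 to 269 in TET_KO and 397 to 812 in DNMT_KO. The cause of these shifts was not tested. The direction of the median of the 158 tiles was kept in each alternative run except for DNMT_KO against DNMT_WT at D1. With D0 and D2 libraries only, chosen after seeing the data, 52 tiles were called in TET_KO and 47 in DNMT_KO. Of the tested tiles, 290 and 961 were then called higher.

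Deviations of same-numbered libraries had low correlations (-0.06 to 0.13). With few reads per tile and few libraries per group, these values cannot decide whether the numbers pair the libraries. With the replicate number as a block, 51 tiles were called in TET_KO, 52 in DNMT_KO, and 0 in the other comparisons. Of the tested tiles, 312 in TET_KO and 883 in DNMT_KO were then called higher. Of the 66 changes of named tiles in a knockout, none that was called turned its direction. The median tile held 6 to 30 reads in D0 libraries, which limits single tiles more than the set.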
